A study of Eutrema salsugineum with 41 samples.

Results

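The 150 genes described here are those whose transcript level fell most closely as the level of AtCMT3 rose among Eutrema salsugineum plants carrying that transgene. They were chosen by measured values, as the 150 lowest of 10231 correlation coefficients, out of 26352 rows in the expression table. E. salsugineum is a salt-tolerant relative of Arabidopsis thaliana that naturally lacks the DNA methyltransferase CHROMOMETHYLASE 3 and also lacks gene body methylation. The study returned the A. thaliana CMT3 genomic sequence under its own promoter to E. salsugineum plants of the Shandong ecotype by floral dip. It followed lines 1 and 2 by single seed descent, and line 3 was a further, independently transformed line. RNA was sequenced from cauline leaves of single plants in 10 libraries, 1 wild type (WT) and 9 plants with AtCMT3. These were AtCMT3-L1T3, AtCMT3-L1T4 and AtCMT3-L1T5 of line 1, AtCMT3-L2T3, AtCMT3-L2T4, AtCMT3-L2T5 and AtCMT3-L2T6 of line 2, and AtCMT3-L3T2 and AtCMT3-L3T2b of line 3, where L is the line and T the transgenic generation. WT carried no transgene. Plant age was not given in the sources used here.

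CMT3 places methyl groups on cytosines in the CHG context, where H is any base but G. It is recruited by dimethylation of lysine 9 of histone H3, and the histone methyltransferase KRYPTONITE is in turn recruited by CHG methylation, so that both marks maintain each other. CMT3 is known chiefly for keeping transposons silent in leaves and other tissues, and its loss from several plant lineages goes together with loss of gene body methylation.

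Each plant gave 1 library, so no value below has a replicate check and no p-value is given. Neither plant-to-plant variation nor library preparation can be told apart from the transgene. Line and generation cannot be told apart from the AtCMT3 level either. The plant with the least AtCMT3, AtCMT3-L2T6, was the only T6 plant sequenced for RNA. The plants with the most, AtCMT3-L3T2 and AtCMT3-L3T2b, were the only T2 plants and the only plants of line 3. The columns of WT and of the T3 and T4 plants of lines 1 and 2 were deposited as FPKM (fragments per kilobase of transcript, scaled to sequencing depth) and summed to between 676021 and 695872. The 5 other columns summed to 1000000, which is the property of TPM (the same measure scaled to a fixed sum). All columns were therefore scaled to sum to 1000000, and levels are given in TPM or as log2(TPM + 1). The number of reads behind each value is not in the expression table, so the counting error of a single value is unknown. In bulk leaf RNA, fewer cells of a type and less RNA per cell cannot be told apart.

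The level of AtCMT3 checked the labels. It was 0.225 TPM in WT, 77.2 in AtCMT3-L1T3, 64.5 in AtCMT3-L1T4 and 97.8 in AtCMT3-L1T5. In line 2 it was 159 TPM in T3, 190 in T4, 62.7 in T5 and 5.39 in T6. The line 3 plants held the highest levels, with 234 TPM for T2 and 372 TPM for T2b. On the log2(TPM + 1) scale, AtCMT3-L2T6 stood at 2.67 and the 8 other plants lay between 5.99 and 8.54. A correlation over the 9 plants therefore rests heavily on AtCMT3-L2T6 at the low end and on the line 3 plants at the high end.

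Of the genes in the table, 14566 had a mean of at least 5 TPM. After the 200 with the highest means were set aside, 14366 remained. Genes whose 2 highest or 2 lowest libraries were both T4 plants, or AtCMT3-L2T5 and AtCMT3-L2T6, were then left out, and the 10231 that remained are called candidate genes. Pearson's r of each with AtCMT3 was taken over the 9 plants, WT left aside. The members ranged from −0.94 to −0.7135, with a median of −0.76, while the candidate genes had a median of 0.14. By ranks, which reduce the gap between AtCMT3-L2T6 and the other plants to that of neighbouring ranks, Spearman's rho of the members had a median of −0.63 and ran from −0.97 to 0.05. The threshold did not mark a gap, since the last members stood at −0.7138 and −0.7135 and the first genes beyond it at −0.7133 and −0.7127. When the 9 AtCMT3 values were shuffled among the plants 100 times, the r at rank 150 ran from −0.85 to −0.48 with a median of −0.65. It was as low as the observed value in 31 of the 100 shuffles.

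**Figure D1:**
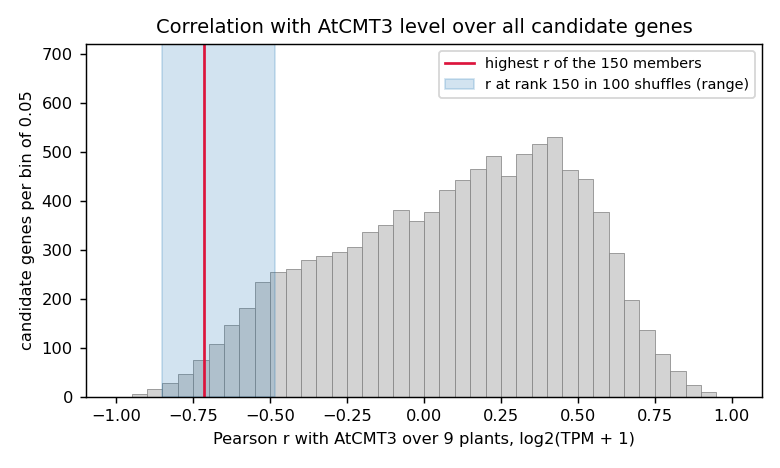
Pearson's r with AtCMT3 over the 9 plants (horizontal axis) for the 10231 candidate genes, as genes per bin (vertical axis). The red line is the highest r of the 150 members, −0.7135, and the blue band spans the r at rank 150 in 100 shuffles of the AtCMT3 values, −0.85 to −0.48. The red line lies inside the band.

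Seen plant by plant, the median member was high in AtCMT3-L2T6 and low in line 3, and nearly level in between. Each member was set against its own median over the 9 plants, on the log2(TPM + 1) scale. The median member stood 0.81 above in AtCMT3-L2T6, with quartiles of 0.54 and 1.16. It stood at −0.29 in AtCMT3-L3T2 and −0.30 in AtCMT3-L3T2b. In the 6 other AtCMT3 plants the medians lay between −0.06 and 0.08, although AtCMT3 itself ranged from 62.7 to 190 TPM among them. These directions describe the values that chose the members.

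**Figure D2:**
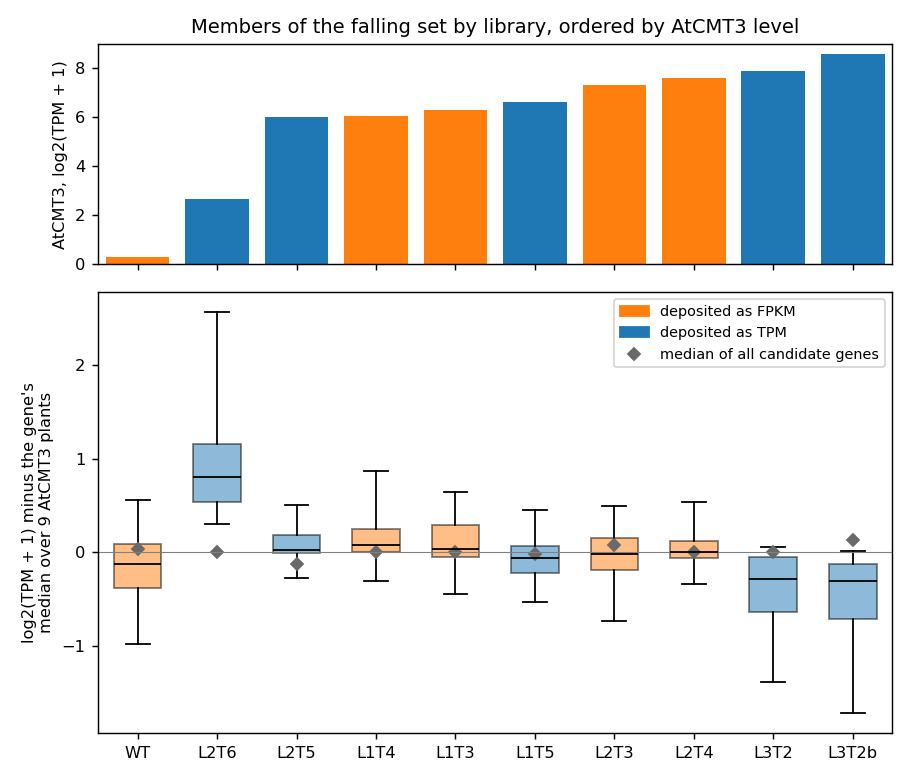
Upper panel, AtCMT3 as log2(TPM + 1) in each library, ordered from the lowest. Lower panel, each of the 150 members as log2(TPM + 1) minus its own median over the 9 AtCMT3 plants. Boxes span the quartiles with the median as a line, whiskers run from the 5th to the 95th percentile, and diamonds are medians of all candidate genes. AtCMT3-L2T6 stands at a median of 0.81, the line 3 plants at −0.29 and −0.30, and WT at −0.12.

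AtCMT3-L2T6 was the highest of the 9 plants for 145 of the 150 members, against 11.2% of candidate genes. A line 3 plant was the lowest for 107, against 20.3% of candidate genes, with AtCMT3-L3T2 lowest for 58 and AtCMT3-L3T2b for 49. The rule used these values, so nothing is read from the counts. The size of the step at AtCMT3-L2T6 varied widely. AtCMT3-L2T6 exceeded the median of the 8 other plants by 0.14 to 7.14 on the log2(TPM + 1) scale. The quartiles of this difference were 0.57 and 1.28 for the members and −0.21 and 0.23 for the candidate genes. The rule made this contrast. For 22 members AtCMT3-L2T6 exceeded the highest of the 9 other libraries, WT included, by more than the whole range of those 9, which held for 0.45% of candidate genes. From AtCMT3-L2T6 to AtCMT3-L3T2b the 148 members with a value above 0 in both differed by 1.19-fold to 208-fold in TPM, with a median of 2.31-fold.

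By abundance the members spanned most of the range of the candidate genes. Their mean over the 10 libraries ran from 5.49 to 490 TPM with a median of 25.0 TPM, against 22.9 TPM over the candidate genes. All but 4 were above 0 in every library, 146 of the 150.

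Names for the members were limited. The table uses locus identifiers, none of which was found among the RefSeq gene names at hand, and A. thaliana orthologs were taken from the part of the study's ortholog list that was held, 1998 pairs. This gave an ortholog to 18 of the 150 members and to 1073 of the candidate genes. The list holds only genes that the study selected for methylation gain and only part of the genome, so its names do not sample the members evenly. The study also names 1 further member, TUB4. Roles below are those known in A. thaliana. Of the 18, 16 were highest in AtCMT3-L2T6 among the 9 plants.

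TUB4 encodes a beta-tubulin of the microtubules, and the study used its E. salsugineum gene to normalise AtCMT3 in quantitative RT-PCR (Thhalv10003210m, r = −0.76). It was at 171 TPM in AtCMT3-L2T6. The 8 other AtCMT3 plants lay between 57.3 and 83.7 TPM, and WT at 70.3 TPM was among them. The line 3 plants held 78.8 and 72.1 TPM, within that range, and r without AtCMT3-L2T6 was 0.26. This member did not fall with AtCMT3 among the 8 plants.

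The named member with the lowest r was the ortholog of AT2G05540, a gene of a glycine-rich protein family (Thhalv10002728m, r = −0.91). Its level was 1081 TPM in AtCMT3-L2T6. It was 93.0 TPM in WT, 113, 96.7 and 133 TPM in AtCMT3-L1T3, T4 and T5, and 139, 47.1 and 58.3 TPM in AtCMT3-L2T3, T4 and T5. The line 3 plants held 34.0 and 23.9 TPM, the lowest of the 10 libraries. A single library thus stood far above, WT lay among the AtCMT3 plants of lines 1 and 2, and r over the 8 plants without AtCMT3-L2T6 was −0.69.

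Several named members are known in growth, hormone and light pathways. HBI1, a bHLH transcription factor that promotes cell elongation downstream of brassinosteroid and gibberellin, had an ortholog (Thhalv10022772m, r = −0.75) at 310 TPM in AtCMT3-L2T6, 57.4 in AtCMT3-L3T2 and 17.0 in AtCMT3-L3T2b. The 6 other AtCMT3 plants lay between 123 and 238 TPM, and WT at 149 TPM was among them. Its low end was more marked than its high end on the log2(TPM + 1) scale. AtCMT3-L2T6 stood 1.21 above the median of the 8 other plants. The mean of the line 3 plants stood at −2.24 relative to the median of the 6 others. The r without AtCMT3-L2T6 was −0.84.

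The ortholog of STE1 (DWF7), a sterol C-5 desaturase on the path to brassinosteroids (Thhalv10021274m, r = −0.72), was at 36.8 TPM in AtCMT3-L2T6 and between 12.3 and 21.9 TPM in the 8 other plants. WT held 22.3 TPM. AtCMT3-L3T2b, with the most AtCMT3, held 21.6 TPM, above 6 of the 7 remaining plants, and r without AtCMT3-L2T6 was −0.10. For this gene the correlation was carried by a single plant.

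FHY1 carries phytochrome A into the nucleus in far-red light. Its ortholog (Thhalv10017273m, r = −0.76) was at 7.34 TPM in WT, 8.51, 12.4 and 5.78 TPM in AtCMT3-L1T3, T4 and T5, and 2.82, 0.71, 5.37 and 11.4 TPM in AtCMT3-L2T3, T4, T5 and T6. It was listed at 0 in AtCMT3-L3T2 and stood at 0.91 TPM in AtCMT3-L3T2b. The 4 plants with the most AtCMT3 were the 4 lowest, and WT lay among the 5 others. Its r was lower without AtCMT3-L2T6 (−0.88) than with it.

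ELF4-L2 is related to the clock gene ELF4. The level of its ortholog (Thhalv10019317m, r = −0.73) ranged from 25.3 TPM in AtCMT3-L3T2 to 56.4 TPM in AtCMT3-L2T6, with 43.4 TPM in WT and 30.2 TPM in AtCMT3-L3T2b. The range was narrow, and AtCMT3-L1T5 at 32.1 TPM lay close to the line 3 plants although it had less AtCMT3.

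Among metabolic and signalling genes, the ortholog of ERDL6, which exports glucose from the vacuole (Thhalv10018460m, r = −0.84), was at 93.3 TPM in AtCMT3-L2T6 and at 33.3 TPM in both line 3 plants. The 6 other AtCMT3 plants lay between 49.6 and 68.9 TPM. WT, with no transgene, was at 40.1 TPM, below all 6 and next to line 3. CURVY1, a receptor-like kinase of leaf cell shape, had an ortholog (Thhalv10016254m, r = −0.80) at 34.2 TPM in AtCMT3-L2T6, 14.2 to 25.5 TPM in the 6 middle plants, 9.1 and 9.0 TPM in line 3 and 14.5 TPM in WT. The orthologs of the thioredoxin-like APRL5 (Thhalv10021238m) and of the FAD-cleaving hydrolase NUDX23 (Thhalv10017043m) varied less. The first lay between 16.2 and 29.6 TPM with WT at 19.4 TPM, and the second between 19.7 and 31.6 TPM with WT at 20.5 TPM. RTV1 encodes a DNA-binding protein related to VERNALIZATION1. Its ortholog (Thhalv10012062m) was at 91.4 TPM in AtCMT3-L2T6 and between 55.2 and 71.4 TPM in the 8 other plants, with r of 0.10 without AtCMT3-L2T6.

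**Figure D3:**
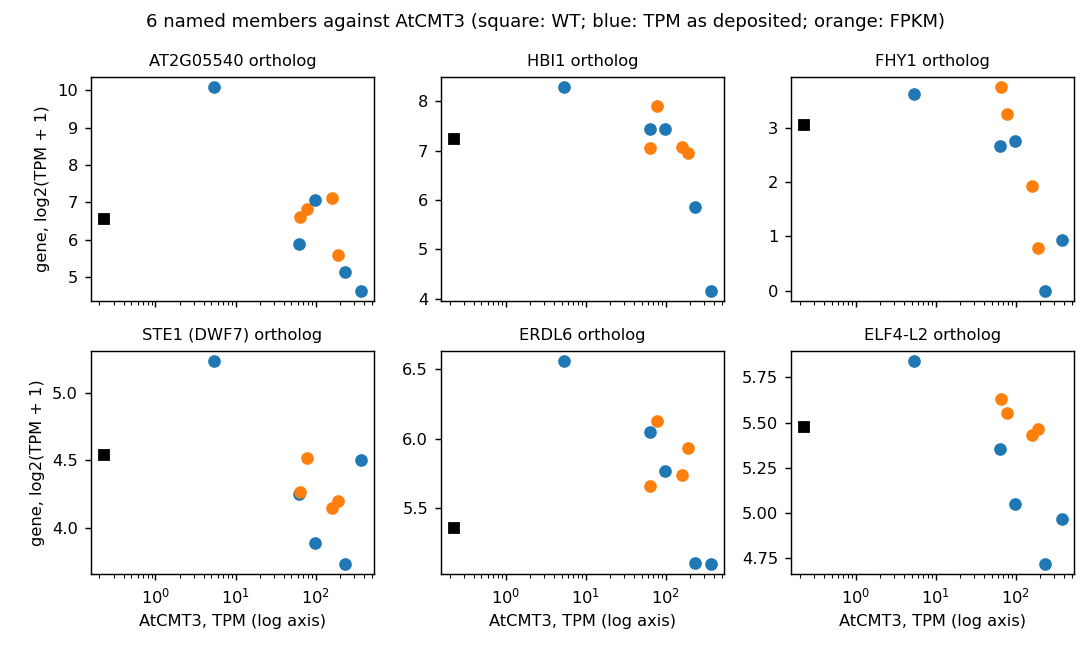
Level of 6 named members as log2(TPM + 1) (vertical axes) against AtCMT3 in TPM on a log axis (horizontal), 1 point per library. Squares are WT, blue points plants deposited as TPM and orange points plants deposited as FPKM. In each panel but that of FHY1 the AtCMT3-L2T6 point, at 5.39 TPM of AtCMT3, is the highest, while WT at 0.225 TPM lies lower.

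The 8 orthologs named by locus only were those of AT3G12590, AT2G25420, AT2G32160, AT1G22910, AT3G15220, AT2G35450, AT3G05900 and AT2G17550. Their levels in AtCMT3-L2T6 ran from 12.0 TPM for AT3G15220 to 87.7 TPM for AT3G05900. For AT3G12590, AT2G32160 and AT3G15220, WT was the lowest of the 10 libraries, at 8.24, 30.7 and 7.17 TPM.

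The members without a name held the most extreme patterns. Thhalv10004990m, with the lowest r of all (−0.94), was at 14.3 TPM in AtCMT3-L2T6, 3.92 and 3.39 TPM in the line 3 plants and 4.41 to 7.70 TPM in the 6 other AtCMT3 plants, and WT lay among these at 4.84 TPM. Thhalv10024150m was at 140 TPM in AtCMT3-L2T6 and listed at 0 in the 9 other libraries. Its r of −0.86 therefore describes 1 library. Another member was at 74.9 TPM in AtCMT3-L2T6 and no higher than 1.90 TPM anywhere else. The 5 members with the largest falls from AtCMT3-L2T6 to AtCMT3-L3T2b, which include both of these and the ortholog of AT2G05540, held 74.9 to 1081 TPM in AtCMT3-L2T6. The 5 members with the highest mean level, again with that ortholog, held 221 to 1201 TPM in AtCMT3-L2T6 and were highest there among all 10 libraries. In 3 of the 4 without a name AtCMT3-L2T6 was more than 1 log2 unit above the median of the 8 other plants, at 1.12, 1.80 and 2.69, while the remaining unnamed gene stood at 0.67 and the AT2G05540 ortholog at 3.83.

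Some members also stood high in WT. Thhalv10027927m (r = −0.89) was at 38.7 TPM in WT and 30.6 TPM in AtCMT3-L2T6, then 17.4, 19.8 and 10.4 TPM in AtCMT3-L1T3, T4 and T5. It was at 5.87, 4.58 and 18.1 TPM in AtCMT3-L2T3, T4 and T5, and at 4.61 and 2.32 TPM in AtCMT3-L3T2 and AtCMT3-L3T2b. Its r without AtCMT3-L2T6 was −0.99, the lowest of the members, and WT, which the correlation did not use, was the highest library. Thhalv10002648m (r = −0.89) was at 46.1 TPM in WT and 46.7 TPM in AtCMT3-L2T6, with 23.8 and 23.9 TPM in line 3 and 27.8 to 38.4 TPM in the 6 others. In these 2 genes the 2 libraries with the least AtCMT3 were the 2 highest, which did not hold for all members high in WT. Among the 5 members with the highest WT relative to the median of the 9 plants, WT held rank 1 to 4 of the 10 libraries. In some of these an AtCMT3 plant other than AtCMT3-L2T6 stood above WT. At the other extreme, the 5 members with the lowest WT relative to the median of the 9 plants stood at −1.81 to −1.14 on the log2(TPM + 1) scale, with WT at 2.82 to 8.16 TPM and AtCMT3-L2T6 at 23.6 to 200 TPM. In these the 2 libraries with the least AtCMT3 lay far apart, WT being lowest or next to lowest of the 10 and AtCMT3-L2T6 highest.

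WT offered the one reading that the correlations did not use, although its column entered the mean level and the patterns left out above. WT was a single library, so the values below describe that plant, and a cause was not tested. The level in WT was above the median of the 9 AtCMT3 plants for 56 of 150 members, or 37.3%, with an exact Clopper-Pearson interval of 29.6% to 45.6% that treats genes as independent and covers counting over genes only. The background over candidate genes was 54.4%, and over the 150 genes with the highest r it was 57.3%. The median difference of WT from that median was −0.12 on the log2(TPM + 1) scale for the members and 0.04 for the candidate genes. The size of this difference varied with the libraries used. It was −0.0202 against 0.06 for candidate genes when the ranking was made without AtCMT3-L2T3, −0.20 against 0.03 without AtCMT3-L2T4 and −0.26 against 0.04 without AtCMT3-L2T6. With no minimum level it was 0 in both. The share of members with WT above the median was below that of the candidate genes in each of the 21 alternatives run. All of them used the same WT library.

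WT was above all 9 AtCMT3 plants for 2 members, or 1.33%, against 6.8% of candidate genes, and below all 9 for 19 members, or 12.7%, against 7.85% of candidate genes. Because nearly every member was high in AtCMT3-L2T6, which the rule used, WT had a higher bar to pass to stand above all 9. That bar does not bear on the count below all 9, whose cause was not tested. WT was nearer to AtCMT3-L2T6 than to the median of the 8 other plants for 15 of the 150 members, against 31.5% of candidate genes. It was also low, at 23 of 150 or 15.3%, among the genes with the highest r, so a low share was not particular to the members. WT was above AtCMT3-L2T6 for 2 members, against 52.7% of candidate genes. This contrast follows from the choice of members high in AtCMT3-L2T6. The median difference of WT from AtCMT3-L2T6 was −0.94 among members and 0.03 among candidate genes.

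**Figure D4:**
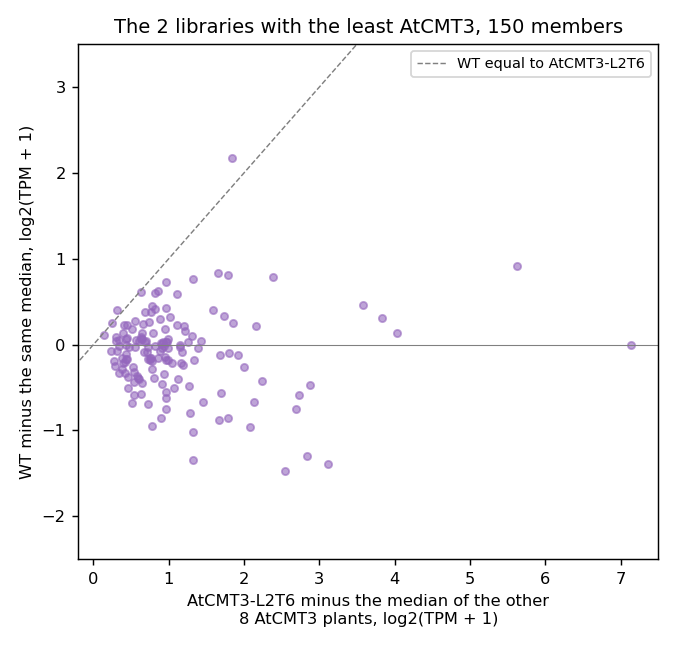
Each of the 150 members by its level in AtCMT3-L2T6 (horizontal axis) and in WT (vertical axis), both as log2(TPM + 1) minus the median of the 8 other AtCMT3 plants. The dashed line is where both libraries are equal. AtCMT3-L2T6 lies 0.14 to 7.14 above the other plants while WT scatters around 0, and 2 members reach the dashed line.

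Past the 4-fold change that corresponds to the study's cutoff of 2 on the log2 scale, AtCMT3-L2T6 was above WT for 23 of 149 members above 0 in both, or 15.4%, where the background was 1.91%. At the other end, AtCMT3-L3T2 was below WT for 5 of 147 members, or 3.40%, where the background was 3.8%. AtCMT3-L3T2b was below WT for 7 of 148 members, or 4.73%, where the background was 2.1%. The rule chose members that were high in AtCMT3-L2T6 and low in line 3, so nothing is read from these counts.

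Without AtCMT3-L2T6 the ordering weakened but mostly kept its sign. Over the 8 other plants r was below 0 for 140 of the 150 members, against 30.7% of candidate genes, above 0 for 9, and undefined for Thhalv10024150m. The median r was −0.51 for the members and 0.28 for the candidate genes. These are the same plants that the rule used, and the numbers describe how much of the correlation the remaining plants held. When the ranking was repeated without AtCMT3-L2T6, only 27 of the 150 members were again among the lowest 150. In these 27, WT was above the median of the 9 plants for 8 genes, or 29.6%, and the median difference was −0.25, against 0.04 over the candidate genes. Among the named members the 27 held 5, including the orthologs of HBI1, FHY1 and ERDL6.

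**Figure D5:**
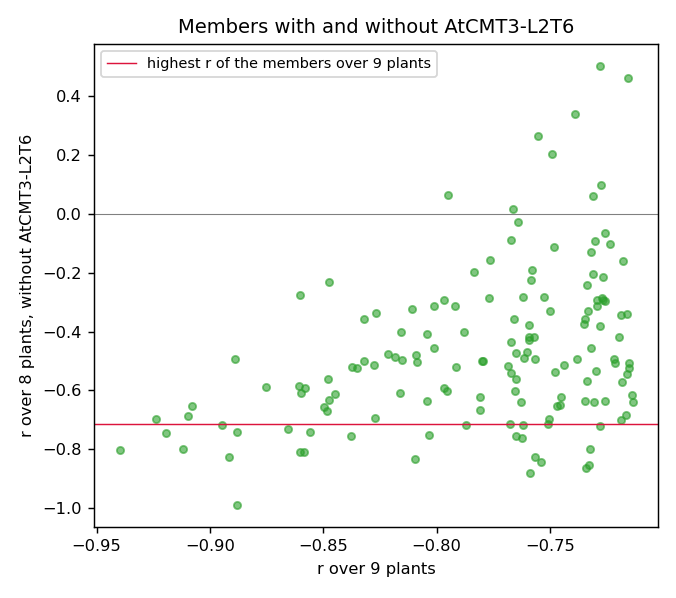
Pearson's r of each member with AtCMT3 over the 9 plants (horizontal axis) and over 8 plants without AtCMT3-L2T6 (vertical axis). The red line marks −0.7135, the highest r of the members over 9 plants. Most points lie above the red line and below 0, with a median of −0.51, and 9 lie above 0.

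The deposited unit divided the plants in a way that does not follow AtCMT3, so r was also taken within each unit. The rule used all of these plants, and its choice fixes the sign of r where the extremes of AtCMT3 enter, so the counts are a description. Over the 5 plants deposited as TPM, which hold AtCMT3-L2T6 and line 3, r was below 0 for all 150 members, against 40.9% of candidate genes, with a median of −0.91. Over the 4 plants deposited as FPKM, r was below 0 for 103 members, or 68.7%, against 40.4% of candidate genes. Its median there was −0.28, over AtCMT3 levels of 64.5 to 190 TPM.

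Plants of 1 line descend from the same transformed plant. The orders within lines come from the values that chose the members, and nothing is read from their counts. In line 1, where AtCMT3 was lowest in T4 and highest in T5, 54 members were highest in T4 and lowest in T5, against 19.5% of candidate genes. In line 2 the full reverse order of AtCMT3, highest in T6 and then T5, T3 and T4, was found for 17 members, against 0.958% of candidate genes. In line 3, where AtCMT3-L3T2b had more AtCMT3 than AtCMT3-L3T2, 72 members were lower in AtCMT3-L3T2b, against 34.2% of candidate genes. A further 77 were higher in AtCMT3-L3T2b, and 1 was listed at 0 in both.

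Markers of other organs were looked for, since cauline leaves grow beside flowers. Of 7 flower markers, 2 had an ortholog among the pairs held, and neither was a member. The ortholog of the floral regulator SEPALLATA2 (Thhalv10021390m) was at 47.5 TPM in AtCMT3-L3T2b and 8.92 TPM in AtCMT3-L3T2. It was no higher than 3.505 TPM in the 8 other libraries, with 0.0996 TPM in AtCMT3-L2T6, and was listed at 0 in AtCMT3-L1T3. That of SEPALLATA4 (Thhalv10004767m), which is less particular to flowers, held 45.5 TPM in AtCMT3-L3T2, with 27.0 TPM in AtCMT3-L3T2b and 5.30 to 25.9 TPM elsewhere.

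Together the pair summed to 54.4 and 74.4 TPM in the line 3 plants, 9.47 TPM in AtCMT3-L2T6 and 5.58 to 29.4 TPM in the 7 remaining libraries. The sum of this pair was thus highest in the plants with the most AtCMT3, where the members were lowest. SEPALLATA4 alone was near other libraries in AtCMT3-L3T2b, at 27.0 TPM against 25.9 TPM in AtCMT3-L2T3. The part of these markers in the result was not tested. None of the 16 leaf and 5 seed markers had an ortholog among the pairs held. PsbS, a photosystem II protein of photoprotection chosen after its values were seen, was at 712 to 1641 TPM in all 10 libraries (Thhalv10011718m), with 1401 TPM in AtCMT3-L2T6 and 998 and 1142 TPM in line 3.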

How the data were processed

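RNA-seq of 10 cauline leaf libraries, 1 plant each, was used. Trimmomatic was used for read trimming, HISAT2 for alignment to the E. salsugineum genome (2.1.0 in the submitters' processing notes) and StringTie 1.3.3b for transcript levels, all by the authors. The authors deposited FPKM values for 5 libraries. Values of the 5 others were deposited under the same name but sum to 1000000, as TPM does. Mixed units change ratios between libraries, so each column was scaled to 1000000, and log2(TPM + 1) was used with Python 3.11.15, numpy 2.4.6, pandas 2.3.3 and scipy 1.17.1. Total read counts per library are not in the table.

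Members were the 150 lowest Pearson r with AtCMT3 over 9 plants, by the filters given above (mean of at least 5 TPM, the 200 most abundant genes and the T4 and late line 2 patterns left out). The members and lists were chosen with earlier results of these data known. Genes named in the text were TUB4, those with an A. thaliana ortholog in the part of the list held, plus, from the rule for named genes (the 10 lowest r, the 5 highest means, the 5 largest falls from AtCMT3-L2T6 to AtCMT3-L3T2b, the 5 largest and 5 smallest differences of WT from the median, and the genes beside the threshold), 4 identifiers without an annotation. The 4 were chosen after values were seen. With 1 library per plant no test across genes was run. The ranking code was run on simulated data with genes made to fall with AtCMT3. That run was a check of the code only, and nothing about the members is read from it. Alternatives were other pseudocounts, level minimums, rank correlation, AtCMT3 in TPM, columns as deposited or set to equal medians, no exclusions, leaving out each plant and, added after seeing the data, the line as a block. The H3K9me2 peaks, gene classes and promoters were not used here, because no positions or annotation of these identifiers were at hand.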

Additional observations from a re-analysis of the deposited data

How the results depend on the processing

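Of the 150 members, 23 were found again with the values as deposited, 49 with no minimum level, 53 with Spearman's correlation, 41 with AtCMT3 in TPM, 92 with no exclusions and 93 with equal column medians. Leaving out 1 plant kept 27 to 130 members, with 27 without AtCMT3-L2T6, 85 without AtCMT3-L2T4 and 95 without AtCMT3-L3T2b. The r at rank 150 ran from −0.80 to −0.65 over all 20 alternatives. The share of members with WT above the median of the AtCMT3 plants was 18.0% as deposited, 24.0% with no minimum, 20.7% with Spearman's correlation and 29.3% against the 4 FPKM plants, and 25.3% (without AtCMT3-L2T4) to 46.0% (without AtCMT3-L2T3) when 1 plant was left out. It was below that of the candidate genes, which ran from 24.3% to 57.0%, in each of the 21 alternatives, all with the same WT library. The median difference of WT was −0.38 as deposited, 0 with no minimum, −0.32 with Spearman's correlation, −0.24 with AtCMT3 in TPM, −0.19 with no exclusions, −0.19 against the 4 FPKM plants, and −0.26 to −0.0202 when 1 plant was left out. As deposited, the main members stood at 1.09 in AtCMT3-L2T6 but at −0.03 and −0.004 in AtCMT3-L3T2 and AtCMT3-L3T2b, where FPKM columns are lower. Equal column medians, which shifted the columns by −0.21 to 0.13, gave 0.80, −0.31 and −0.46.

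The cause of these changes was not tested beyond the unit. No paired analysis was possible by replicate number because each group is 1 library. With the line as a block, an alternative added after seeing the data, 66 members were found again, the share was 42.0% and the median difference −0.05. The planned results on H3K9me2, gene classes and promoter motifs were not run.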
